A study of Homo sapiens with 6 samples.

Results

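The KLF, SP and EGR genes encode zinc finger transcription factors that bind GC-rich DNA, and the 31 of them (KLF1 to KLF18, SP1 to SP9 and EGR1 to EGR4) were taken by name from the 20015 protein-coding genes of GENCODE release 44. For each gene, the peaks overlapping 1500 bp on either side of any annotated transcript start were read in every library, and these peaks are called promoter peaks here. Membership rests on the names alone, and 18 are KLF genes, 9 SP genes and 4 EGR genes.

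KLF and SP factors carry a set of adjoining zinc fingers at the C terminus and bind GC boxes and CACCC boxes. SP1 and SP3 are present in most cells, and many other members act in single lineages or developmental fields. EGR factors bind a related GC-rich site and are immediate early genes, switched on within minutes of growth factor signaling through serum response factor (SRF), which binds CArG boxes. H3K4me3 is a histone mark of active and poised promoters. H2AK119ub is the product of the Polycomb complex PRC1 and is best known from silent developmental genes, and CpG-rich promoters are where both marks are most often found.

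The cells were parental NCI-H661, an established human large cell lung cancer line, without any knockdown. In sequential ChIP (reChIP), chromatin recovered with a first antibody is precipitated again with a second one. There were 2 biological replicates each of K4–K119 (H3K4me3 antibody first, H2AK119ub antibody second), K119–K4 (the reverse order) and IgG–IgG (control antibody in both steps), with 1000000 cells per reChIP. No library made with 1 mark's antibody followed by IgG was among them, so carry-over of the first precipitation cannot be told apart from the presence of both marks, and no RNA was measured in them, so neither the identity of the cells nor expression of the genes could be checked here.

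The K4–K119 lists held 104207 and 123266 peaks with 1977756 and 918532 reads, the K119–K4 lists 148086 and 190786 peaks with 1580579 and 867173 reads, and the IgG–IgG lists 28672 and 31741 peaks with 58980 and 65445 reads. The median peak held 2 reads in every library, so a peak of 10 or more reads is distinguished below. The lists give no reads outside peaks, and the sequencing depth is unknown. A promoter peak was found for 78.2% and 59.9% of all genes in K4–K119, for 68.5% and 64.7% in K119–K4 and for 10.3% and 10.7% in IgG–IgG.

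Promoters of 5 members are shown to set the sequences beside the values that follow. KLF13, SP8 and EGR1 held the most reChIP reads of their families among the members in the RefSeq promoter table, and KLF17 was the member without any reChIP peak. SP5 was chosen after its values were seen, as a gene whose 4 reChIP libraries differed widely. Each runs 5′ to 3′ from 250 bases before to 50 bases after the RefSeq start (GRCh38.p14), and 25 of the 31 members had such an entry. Capitals mark, on either strand, GC boxes spelled GGGCGG, boxes of the 5 letters CACCC, the EGR site and the CArG box. The EGR site was searched as GCGNGGGCG, and where it runs on into a GC box the letters are shared. The intervals are chr15:31326585-31326884 on the plus strand for KLF13, chr7:20786837-20787136 on the minus strand for SP8, chr5:138465229-138465528 on the plus strand for EGR1, chr1:44118571-44118870 on the plus strand for KLF17 and chr2:170715087-170715386 on the plus strand for SP5.
KLF13: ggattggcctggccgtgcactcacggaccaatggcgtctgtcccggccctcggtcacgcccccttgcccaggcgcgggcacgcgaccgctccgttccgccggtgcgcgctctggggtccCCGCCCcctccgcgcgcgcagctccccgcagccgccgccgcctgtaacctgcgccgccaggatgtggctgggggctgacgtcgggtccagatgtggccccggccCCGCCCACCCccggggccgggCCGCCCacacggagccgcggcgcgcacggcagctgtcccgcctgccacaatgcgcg
SP8: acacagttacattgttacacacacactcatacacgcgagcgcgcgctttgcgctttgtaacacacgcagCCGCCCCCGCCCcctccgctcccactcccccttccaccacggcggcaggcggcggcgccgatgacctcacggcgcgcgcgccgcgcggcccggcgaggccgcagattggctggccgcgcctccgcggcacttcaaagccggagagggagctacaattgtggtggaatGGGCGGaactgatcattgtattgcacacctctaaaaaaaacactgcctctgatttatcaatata
EGR1: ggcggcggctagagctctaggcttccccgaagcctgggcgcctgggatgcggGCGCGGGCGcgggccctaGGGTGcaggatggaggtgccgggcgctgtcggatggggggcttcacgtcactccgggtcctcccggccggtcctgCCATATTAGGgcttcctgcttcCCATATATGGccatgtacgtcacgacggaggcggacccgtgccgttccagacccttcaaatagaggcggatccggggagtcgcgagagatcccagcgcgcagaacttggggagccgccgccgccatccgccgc
KLF17: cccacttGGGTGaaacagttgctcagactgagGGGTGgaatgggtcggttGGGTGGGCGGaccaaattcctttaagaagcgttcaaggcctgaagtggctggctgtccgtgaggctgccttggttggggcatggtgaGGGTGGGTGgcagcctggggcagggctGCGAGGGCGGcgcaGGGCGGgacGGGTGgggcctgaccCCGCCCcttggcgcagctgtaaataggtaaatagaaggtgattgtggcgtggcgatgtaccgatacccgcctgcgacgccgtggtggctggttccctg
SP5: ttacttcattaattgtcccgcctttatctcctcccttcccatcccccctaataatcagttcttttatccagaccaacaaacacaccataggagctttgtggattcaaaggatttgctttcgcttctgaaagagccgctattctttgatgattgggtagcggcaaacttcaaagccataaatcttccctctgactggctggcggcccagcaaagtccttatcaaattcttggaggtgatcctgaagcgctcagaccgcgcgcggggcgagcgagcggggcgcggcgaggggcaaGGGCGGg

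The EGR1 promoter held 2 CArG boxes and 1 EGR site. Of 21613 promoters of protein-coding genes in the table, 1.26% held at least 1 CArG box and 12.3% at least 1 EGR site. Among the 25 members, 2 held a CArG box (EGR1 and EGR2) and 10 an EGR site, among them SP8 and KLF17. At promoters of genes with a reciprocal region, defined in the next paragraph, 1.05% held a CArG box and 19.3% an EGR site. The promoter of KLF17, with 4 GC boxes and 6 CACCC boxes, was richer in these letters than that of SP5, with 1 GC box and no CACCC box. A GC box was present at 19 of the 25 members, against 56.8% of all these promoters, and a CACCC box at 11 of 25, against 63.5%. At promoters of genes with a reciprocal region the shares were 71.5% for the GC box and 66.0% for the CACCC box. A match is a string of letters and not a measured binding site.

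The comparison of the 2 orders of antibodies asks where both marks lie on the same chromatin fragments. A reciprocal region was called from peaks with a log2 fold over input above 1 and an FDR below 0.05. These had to overlap by more than 25% of both peaks between replicates and then between orders. The authors give an overlap above 25% without naming the peak it refers to. Of the 31 members, 12 had such a region, with 14 regions in all, against 20.9% of all protein-coding genes (4180). By family, 9 of 18 KLF, 2 of 9 SP and 1 of 4 EGR genes had a region. Promoter peaks of any size were present in all 4 reChIP libraries at 19 members (42.5% of all genes), and peaks of at least 10 reads at 15 (28.8% of all genes), of which 10 were KLF, 3 SP and 2 EGR genes.

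**Figure D1:**
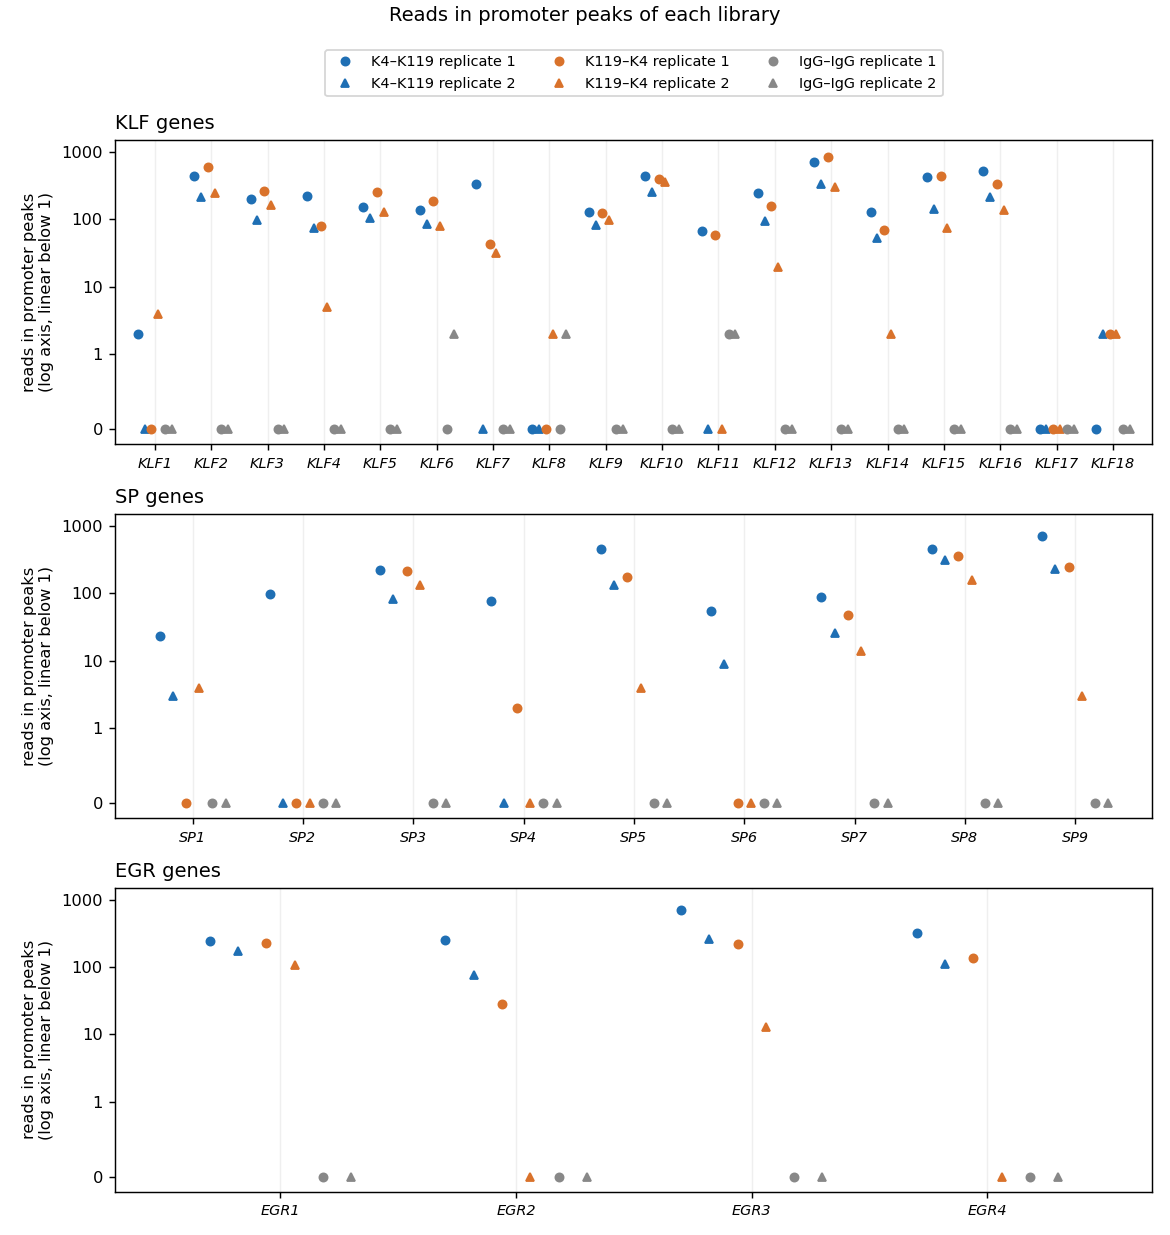
Reads in promoter peaks of every KLF, SP and EGR gene (vertical, log axis that is linear below 1) in each of the 6 libraries, with K4–K119 in blue, K119–K4 in orange and IgG–IgG in gray, circles for replicate 1 and triangles for replicate 2. KLF13 lies highest of the KLF genes in each reChIP library except K119–K4 replicate 2, where KLF10 is higher, SP5, SP9 and EGR3 drop to 4, 3 and 13 reads in K119–K4 replicate 2, and IgG–IgG never exceeds 2 reads.

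Among the KLF genes with a region, KLF13, a regulator of chemokine transcription in T cells, had the most reads. Its promoter peaks summed to 717 and 336 reads in K4–K119, against 841 and 308 in the K119–K4 replicates, and neither IgG–IgG library had a peak there. All 4 reChIP values were at or above the 99.3 percentile of all genes in their library. Per kb of peak, a measure that takes account of peak width, KLF13 had 93.1 and 53.3 reads in K4–K119, against 118 and 53.1 in K119–K4. A peak of 2 reads over 100 bp reaches 20.0 reads per kb, so this measure does not rank genes with few reads. A second region of 2600 bp lay at other KLF13 starts, 64266 to 66865 bp downstream of the canonical start and outside the exons of the canonical transcript. Its peaks held 206 and 69 reads in K4–K119, against 135 and 38 in K119–K4. These reads are part of the KLF13 sums, percentiles and densities given above.

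KLF2, a factor induced by blood flow in endothelium and needed for T cell quiescence, held 442 and 218 reads in K4–K119, against 600 and 246 in K119–K4. Its density of 108 and 68.1 reads per kb in K4–K119, against 162 and 91.1 in K119–K4, was among the 4 highest of the members in every reChIP library. Reads at KLF15, which controls glucose and amino acid metabolism in liver and muscle, were 429 and 145 in K4–K119, against 443 and 75 in K119–K4. Replicate 1 exceeded replicate 2 in both orders, and the mean density over the 4 libraries, 111 reads per kb at KLF15, 107 at KLF2 and 96.0 at KLF10, was the highest of the members. KLF10, an early target of TGF-β signaling, held 436 and 254 reads in K4–K119, against 395 and 364 in K119–K4, so that the orders overlapped.

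KLF16, which like KLF13 can bind the SIN3A corepressor, had the widest region of the members at 8800 bp, wider than 99.8% of regions at genes. It held 523 and 216 reads in K4–K119, against 339 and 136 in K119–K4. The 8800 bp came from a peak of K4–K119 replicate 1 alone, whereas the widest promoter peaks of the other reChIP libraries were 4100, 3600 and 2900 bp.

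Fewer reads were found at KLF3, a repressor that recruits CtBP, with 203 and 97 in K4–K119, against 261 and 166 in K119–K4. KLF5, a driver of epithelial proliferation, held 153 and 104 reads in K4–K119, against 254 and 130 in K119–K4. Both of these genes had raw counts that overlapped between orders. KLF6, a gene induced by tissue injury, held 136 and 87 reads in K4–K119, against 190 and 80 in K119–K4. At KLF12, a repressor of the AP-2 alpha gene, the counts were 246 and 95 reads in K4–K119, against 158 and 20 in K119–K4. In raw reads K119–K4 replicate 2 was the lowest library at both KLF6 and KLF12, whereas after scaling to library size (CPM) it was the lowest of the 4 at KLF12, with 36 CPM, and the highest at KLF6, with 144 CPM.

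Regions of the KLF genes covered the canonical start in every one of the 9 genes. The KLF2 region (chr19:16324101-16328200, hg38, 4100 bp) ran from upstream of the start into exon 3 of 3, and the main KLF13 region (chr15:31325001-31329700, 4700 bp) reached exon 1 of 2. Regions of KLF3, KLF5, KLF6, KLF10, KLF12 and KLF15 were 2600 to 4200 bp wide and reached only exon 1. Over the 12 members the median widest region was 3100 bp, against 2200 bp over all genes with a region, and 11 of the 12 lay above that gene median. The regions of KLF2, KLF3, KLF6, KLF10 and KLF16 also take in annotated noncoding RNAs, whose share of the reads cannot be separated.

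Of the SP genes, SP8, which is needed for limb bud outgrowth, held 452 and 309 reads in K4–K119, against 358 and 159 in K119–K4. Its region (chr7:20783101-20788100, 5000 bp) covered the start and reached exon 2 of 2. The peaks of both K4–K119 libraries contained the start, and those of both K119–K4 libraries began downstream of it. SP7 encodes osterix, the master regulator of bone-forming cells. Reads there were 89 and 26 in K4–K119, against 47 and 14 in K119–K4, the lowest of the members with a region. The SP7 region (chr12:53344301-53345800, 1500 bp) lay at another start of the gene, 7947 to 9446 bp upstream of the canonical start, and the gene was not counted when only canonical starts were used.

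EGR1, an immediate early gene of most cell types, held 241 and 172 reads in K4–K119, 227 and 106 reads in K119–K4 and no peak in IgG–IgG. The orders overlapped. Its main region (chr5:138465201-138467800, 2600 bp) covered the start and reached exon 2 of 2, and a second one (chr5:138463601-138465000, 1400 bp) lay 479 to 1878 bp upstream, where a noncoding RNA is annotated. The EGR1 promoter printed above lies within this main region, whose upstream edge came from K4–K119 replicate 2 alone. The peak with most reads began at -78 and -278 bp from the start in K4–K119 and at 22 bp in both K119–K4 libraries. The CArG boxes and the EGR site lie upstream of the start, so these K119–K4 peaks did not cover them.

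**Figure D2:**
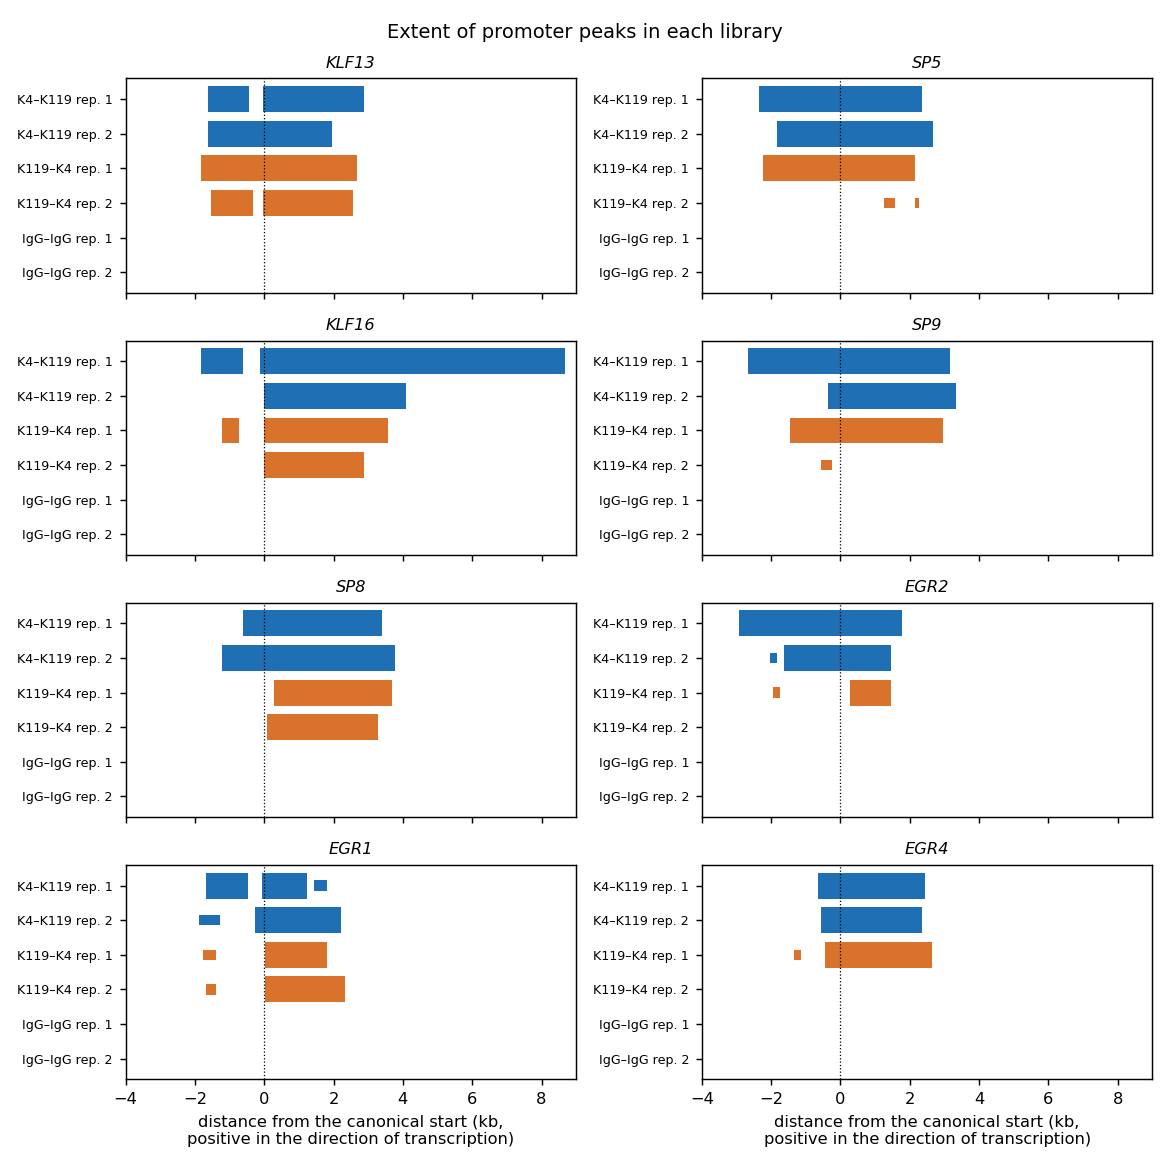
Promoter peaks of 8 members drawn against distance from the canonical start (kb, positive in the direction of transcription), 1 line per library, with peaks of 10 or more reads as tall bars and smaller peaks as thin bars. The left genes had a reciprocal region, and at the right genes K119–K4 replicate 2 had only thin bars or none while the other 3 reChIP libraries had tall bars.

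The other 19 members had no region, and they fell into graded classes. KLF9, SP3 and EGR3 had peaks of 10 or more reads in all 4 reChIP libraries. KLF9, a hormone-responsive gene, held 127 and 82 reads in K4–K119, against 126 and 99 in K119–K4. SP3 held 224 and 83 reads in K4–K119, against 211 and 131 in K119–K4. Both genes were left out at K4–K119 replicate 2, where the peak with most reads had a log2 fold over input of 0.79 at KLF9 and 0.86 at SP3, and both were called without the filter on the fold. EGR3 was called when any overlap of 1 bp or more was accepted, and when K119–K4 replicate 2 was left out. Its K119–K4 peaks with most reads were 3500 and 800 bp wide.

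A further class had peaks of 10 or more reads in every reChIP library but K119–K4 replicate 2. It comprised 6 members (KLF4, KLF14, SP5, SP9, EGR2 and EGR4), where 8.86% of all genes (1773) showed the same combination. SP9, a factor of forebrain interneurons and limb buds, held 703 and 228 reads in K4–K119, against 248 and 3 in K119–K4. SP5, a target of Wnt signaling, held 458 and 133 reads in K4–K119, against 176 and 4 in K119–K4. At both genes the first K119–K4 replicate had a broad peak of 4400 bp, and the second had only fragments of 300 bp or less.

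EGR2, a regulator of myelination and hindbrain patterning, held 251 and 76 reads in K4–K119, against 28 and 0 in K119–K4. EGR4 held 315 and 112 reads in K4–K119, against 135 and 0 in K119–K4. Neither EGR gene had any peak in K119–K4 replicate 2. KLF4, one of the reprogramming factors of pluripotency, held 225 and 76 reads in K4–K119, against 79 and 5 in K119–K4. KLF14 held 130 and 54 reads in K4–K119, against 70 and 2 in K119–K4. EGR3, a factor of muscle spindle development, had the same trend with 698 and 260 reads in K4–K119, against 220 and 13 in K119–K4, and its 13 reads kept it in the class with peaks in all 4.

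In K119–K4 replicate 1, which had a peak at all of these 6 genes, the log2 fold over input of the peak with most reads was 0.35 to 0.76 at 5 of them, under the filter, and 1.30 at KLF14. At SP5 this fold was 5.80 and 0.43 in K4–K119 and 0.76 in K119–K4 replicate 1, over 25, 25 and 22 input reads. SP9 had 5.36 and 0.64 in K4–K119 and 0.35 in K119–K4 replicate 1, over 52, 37 and 41 input reads. The scale of K4–K119 replicate 1, 0.328 reads per input read, differed from the 3.62 to 4.74 of the other reChIP libraries. Folds are therefore not comparable between K4–K119 replicate 1 and the other libraries. The region call nevertheless used the same cut of 1 in every reChIP library, which was easier to pass in K4–K119 replicate 1.

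KLF7, a gene of axon growth, also had peaks of 10 or more reads in 3 reChIP libraries, but the library without a peak was K4–K119 replicate 2. Peaks of 10 or more reads in every reChIP library but K4–K119 replicate 2 were present at 2.90% of all genes (581). KLF7 held 334 and 0 reads in K4–K119, against 44 and 32 in K119–K4. The other members had such peaks in 2 libraries or fewer. KLF11 held 68 and 0 reads in K4–K119, against 59 and 0 in K119–K4, and was thus seen in replicate 1 of both orders. SP2, SP4 and SP6 had peaks of 10 or more reads in K4–K119 replicate 1 alone, with 99, 76 and 55 reads. Of their other libraries, only K4–K119 replicate 2 at SP6 with 9 reads and K119–K4 replicate 1 at SP4 with 2 reads had a peak. Over all genes, 70.6% had a peak of 10 or more reads in K4–K119 replicate 1, against 32.8% to 47.0% in the other reChIP libraries. The shares of all genes with such peaks in K4–K119 replicate 1 alone, in replicate 1 of both orders alone or in no reChIP library were not counted. No peak reached 10 reads at KLF1, the erythroid factor, KLF8, KLF18 and SP1. SP1 held 23 and 3 reads in K4–K119, against 0 and 4 in K119–K4, the 23 spread over several peaks. KLF1 held 2 and 0 reads in K4–K119, against 0 and 4 in K119–K4, KLF8 had 2 reads in K119–K4 replicate 2 alone, and KLF18 had 2 reads in each of K4–K119 replicate 2 and both K119–K4 replicates. KLF17, a gene of the early human embryo, had none in any reChIP library.

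In the IgG–IgG libraries 3 members had a promoter peak (KLF6, KLF8 and KLF11), against 19.1% of all genes, and each of the 4 peaks held 2 reads. The other 28 had no IgG–IgG peak. At KLF8 the single reChIP peak also had 2 reads. As 2 reads was the lowest count of a peak in every library, this equality does not compare the libraries. The highest IgG–IgG promoter peak of any gene had 7 reads.

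The members' promoters were CpG-rich as a group, with a median of 195 CpG within 1500 bp of the canonical start, against 115 over all genes. Members with a region had a median of 240 CpG (46 to 398) and those without had 169 (21 to 290). Of the 22 members with at least 150 CpG, 11 had a region, where 46.0% of all genes with as many CpG had one. Of the 9 members below 150 CpG, 1 had a region (SP7), where 10.3% of all such genes had one. The 46 CpG of SP7 are those of its canonical start, whereas its region lay at another start, where CpG were not counted. The share of members with a region was therefore near that of all genes of the same bin. The bin from 150 CpG has no upper limit, so members and genes are not matched in CpG number within it. KLF11, with 290 CpG and a mean of 18.8 reads per kb, and KLF4, with 270 CpG and 31.9 reads per kb, were CpG-rich without a region.

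**Figure D3:**
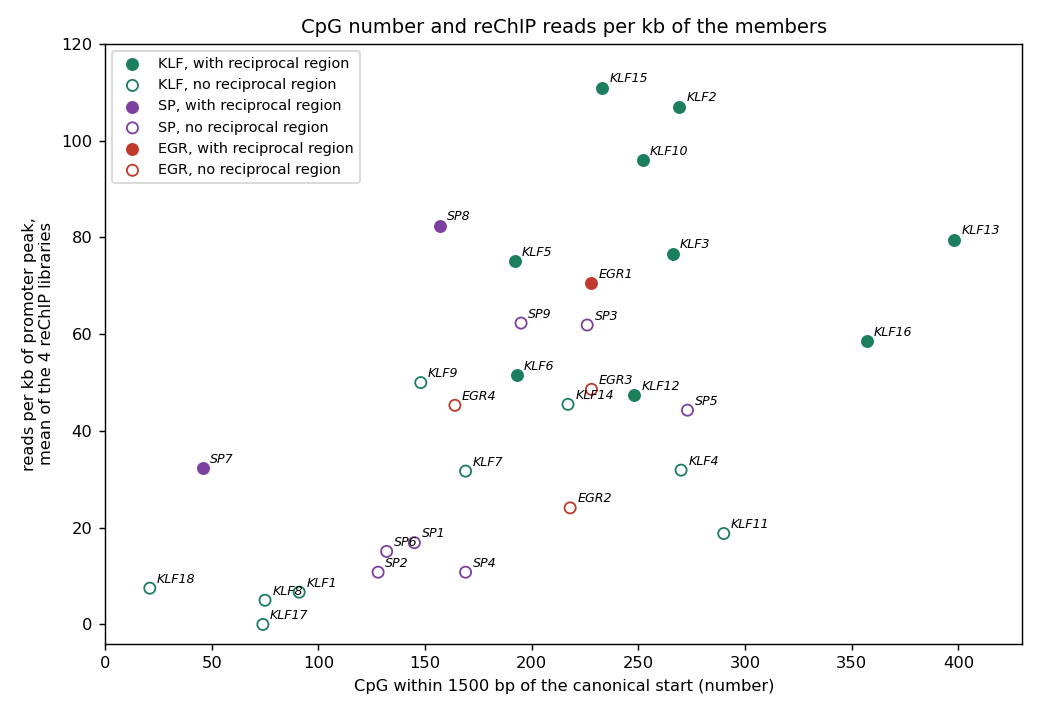
CpG number within 1500 bp of the canonical start (horizontal) against the mean reads per kb of promoter peak over the 4 reChIP libraries, with 0 for a library without a peak (vertical), for the 31 members, filled where a reciprocal region was called. The members under 100 CpG lie at 7.50 reads per kb or lower except SP7 at 32.3, and KLF11 lies low at 290 CpG. The SP7 peaks lay away from the canonical start, where its CpG were counted.

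Whether the order of antibodies changed the reads was tested with edgeR (quasi-likelihood, two-sided, Benjamini-Hochberg) over 12722 promoters, of which 26 were members. No promoter passed an adjusted p of 0.05 in either direction (0% higher and 0% lower), and so 0 members were called. The median log2 fold of all promoters was 0.28, and 0.39 with DESeq2 size factors. At an unadjusted p under 0.05 there were 1003 promoters (7.88%), among them KLF2, KLF3, KLF5 and SP3, while DESeq2 called 310 promoters higher and 316 lower in K4–K119 and KLF2 as its only member. In CPM, that is reads scaled to the promoter-peak total of their library after TMM normalization, both K4–K119 libraries exceeded both K119–K4 libraries at 10 members (23.7% of all promoters tested). The opposite held at 6 members (20.1% of all promoters tested).

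Higher in both K119–K4 libraries, without passing the adjusted threshold, were KLF2, KLF3, KLF5, KLF6, KLF13 and SP3. KLF3 had 111 and 123 CPM in K4–K119 against 195 and 299 in K119–K4 (log2 fold -1.08, SE 0.28, edgeR adjusted p = 0.527). KLF2 had 241 and 276 CPM in K4–K119 against 449 and 443 in K119–K4 (log2 fold -0.79, SE 0.20, edgeR adjusted p = 0.511). KLF5 had 83.5 and 131 CPM in K4–K119 against 190 and 234 in K119–K4 (log2 fold -0.98, SE 0.31, edgeR adjusted p = 0.563). As differences in CPM, the 2 replicates of an order at KLF2, KLF3 and KLF5 lay closer to each other than to those of the other order, except in K119–K4 at KLF3. Taken as ratios, the exception was instead K4–K119 at KLF5, where 83.5 and 131 CPM lay further apart than 131 and 190.

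Higher in both K4–K119 libraries, likewise without passing it, were KLF4, KLF12, KLF14, KLF16, SP5, SP6, SP9, EGR2, EGR3 and EGR4. EGR3 had 381 and 329 CPM in K4–K119 against 165 and 23.4 in K119–K4 (log2 fold 1.86, SE 0.84, edgeR adjusted p = 0.7). For SP9 the values were 384 and 288 in K4–K119 against 186 and 5.4 in K119–K4 (log2 fold 1.75, SE 1.23, edgeR adjusted p = 0.802), and for SP5 they were 250 and 168 in K4–K119 against 132 and 7.2 in K119–K4 (log2 fold 1.53, SE 1.13, edgeR adjusted p = 0.81). The K119–K4 replicates were far apart at each of these genes. With K119–K4 replicate 1 left out, leaving 1 library whose spread is taken from the other order, SP5, SP9, EGR2, EGR3 and EGR4 were called higher in K4–K119 among 456 promoters, and none was called lower. The log2 fold was then 3.89 at EGR3, 5.9 at SP9 and 4.81 at SP5, while without K119–K4 replicate 2 it was 1.11 at EGR3, 0.86 at SP9 and 0.68 at SP5, so its size rests on which K119–K4 library is used. SP6 had no peak in either K119–K4 library, so no fold is given. EGR1 (log2 fold -0.05, SE 0.31) and SP8 (log2 fold 0.20, SE 0.29) overlapped between orders, and KLF16 differed by a log2 fold of 0.16 (SE 0.18).

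**Figure D4:**
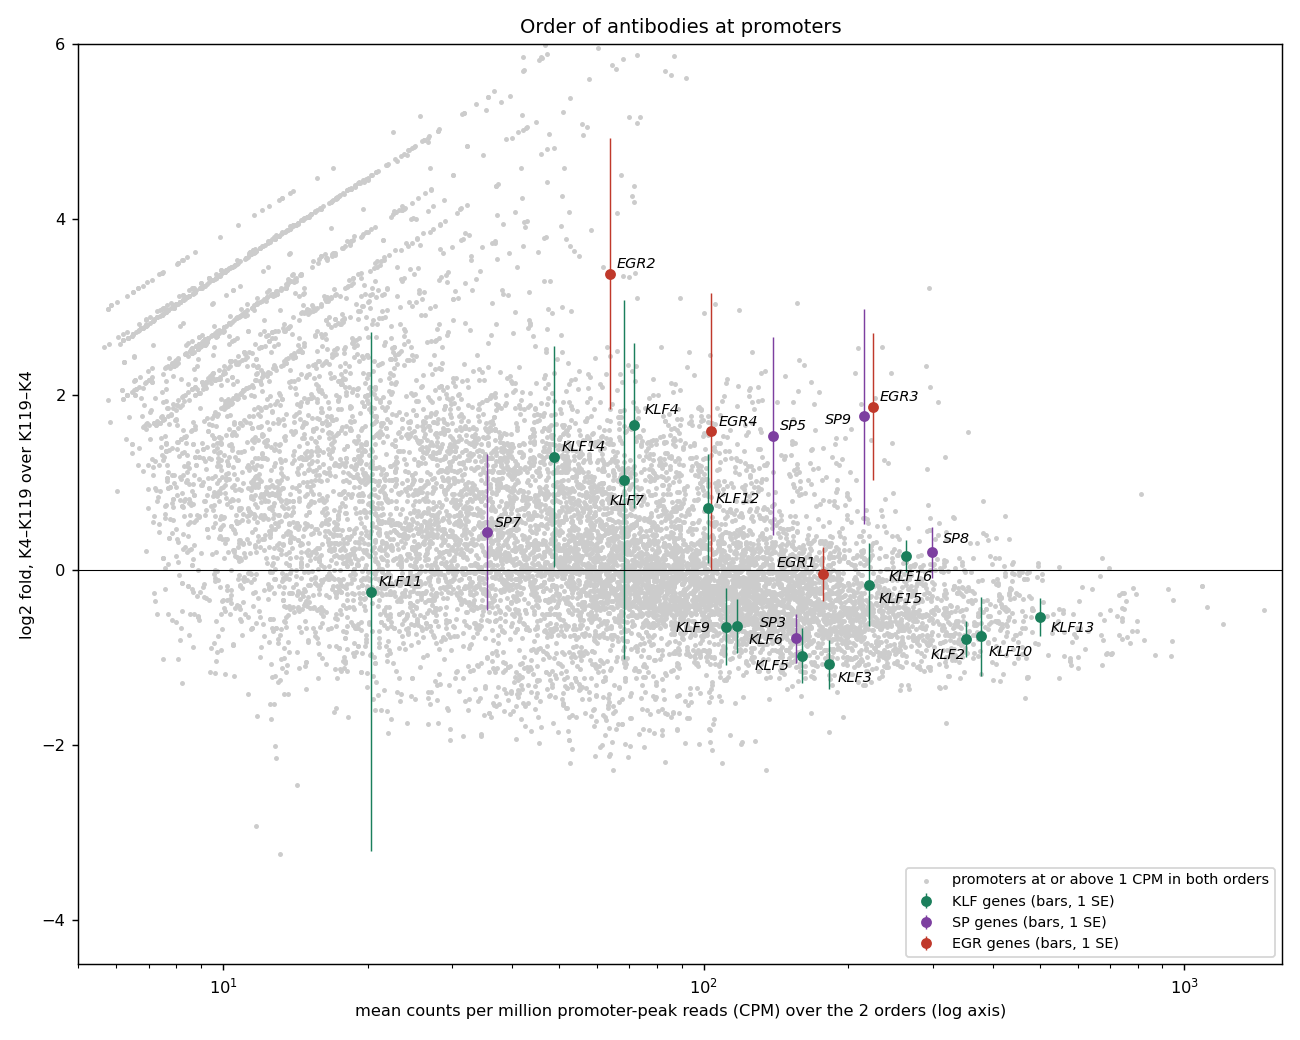
Log2 fold of K4–K119 over K119–K4 (vertical) against mean CPM over both orders (horizontal, log axis) for promoters at or above 1 CPM in both orders, with the KLF, SP and EGR genes in color and bars of 1 SE. The EGR2, EGR3, EGR4, SP5 and SP9 points lie above 0 with long bars, KLF2, KLF3, KLF5 and SP3 lie below 0 with short bars, and promoters beyond the axis limits are not drawn.

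Genes that work with these factors were read in the same way. Of the SRF pathway and the NAB corepressors of EGR proteins, 4 of 8 had a region (SRF, ELK3, MRTFA and NAB2), and NAB2 held 488 and 197 reads in K4–K119, against 546 and 222 in K119–K4. Of other immediate early genes, 12 of 17 had one, including FOS, JUN, JUNB, ATF3 and MYC, and ZFP36 had none although its peaks held 966 and 702 reads in K4–K119, against 857 and 357 in K119–K4. Of corepressors and coactivators that bind SP or KLF proteins, 6 of 8 had one, including SIN3A, CTBP1 and CTBP2. All genes together stood at 20.9%, and genes with at least 150 CpG at 46.0%. Most genes of each list had at least 150 CpG, so the share of all genes is not matched to them. Median reads of the 17 immediate early genes were 287 and 140 in K4–K119, 273 and 134 in K119–K4 and 0 in both IgG–IgG libraries. For the 31 members the medians were 224 and 83.0 in K4–K119, 135 and 13 in K119–K4 and 0 in IgG–IgG, and for all genes 59.0 and 3.00 in K4–K119, 6.00 and 3.00 in K119–K4 and 0 in IgG–IgG.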

How the data were processed

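Per the submitters' processing notes, the reads went through Trim Galore 0.6.6, BWA 0.7.13 (hg38), SAMtools 1.9 and Picard 2.6.0. The authors ran EPIC2 separately on every replicate with genomic input as control (bins of 100 bp, 1 gap, fragments of 147 bp, FDR 0.05). The deposited counts per peak, for reChIP and for input, are raw whole numbers. A deposited p-value or FDR compares a peak with input inside its own library. The deposited log2 values are enrichments over scaled input, and the score that the authors deposited beside them was not needed here. The ENCODE blacklist was not used here.

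From these lists, reciprocal regions were called as stated above. Counts of promoter peaks were summed per gene, a promoter without a peak counting as 0, and promoters averaging at least 10 reads over the 4 reChIP libraries were tested with edgeR 4.0.16 in R 4.3.3 after TMM normalization. DESeq2 1.42.0 was an alternative. Python 3.11.15, numpy 2.4.6, pandas 2.3.3 and matplotlib 3.10.9 were used, and the scripts were tested on simulated data. Groups came from the submitters' labels. P-values rest only on the spread between the 2 biological replicates of an order, with the dispersion moderated across all promoters tested. Each SE was derived from the log2 fold and the F statistic of the edgeR test. All members were accounted for, with values per library for those with a region or with peaks in some reChIP libraries only. The members and gene lists were chosen with earlier results of these data known.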

Additional observations from a re-analysis of the deposited data

How the results depend on the processing

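Peak lists hold no reads outside peaks, so a promoter without a peak may still have had reads, and each order had 2 replicates. The 12 members with a reciprocal region became 4 (KLF2, KLF3, KLF12 and EGR1) at a log2 fold above 2, where all genes fell to 6.27%, and ranged between 8 and 14 under the other filters, overlaps and promoter definitions. Leaving out 1 reChIP library gave 12 to 14. The 3 members with an IgG–IgG peak became 0 at 3 or more reads per peak and 1 to 3 with 1 IgG–IgG library left out, the 1 without replicate 2. Members with a peak in all 4 reChIP libraries stayed between 14 and 19. The order test called 0 promoters in edgeR, 626 in DESeq2 (1 member, KLF2) and 3 without the filter on low counts. Without 1 reChIP library it called 0 to 456 promoters and 0 to 5 members, all of them without K119–K4 replicate 1. A replicate block called 0 promoters, with 1058 at an unadjusted p under 0.05. The labels do not pair the replicates, and deviations of equal-numbered replicates correlated at 0.00895 over 12722 promoters. That value cannot show whether equal-numbered samples were prepared together, which is unknown. Alternative log2 folds were followed for only 14 of the 26 members tested, and KLF7, KLF11, SP2 and SP4 were among those not followed. Of the 152 values of these 14 members, 145 kept the sign. The exceptions were SP8, at -0.17 to 0.55 with a library left out (-0.17 without K4–K119 replicate 2), and EGR1, at 0.04 with DESeq2 size factors and with peaks of log2 fold above 1, 0.03 in DESeq2, 0.05 with a peak in all 4 libraries, and -0.45 to 0.33 with a library left out (0.33 without K4–K119 replicate 1, 0.03 without K119–K4 replicate 2).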
